A study of Mus musculus with 6 samples.

Results

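The constitutive proteasome subunits are the genes whose symbols begin with Psma, Psmb, Psmc or Psmd followed by a number, without the interferon-inducible Psmb8, Psmb9 and Psmb10. The rule found 36 genes among the 21950 gene symbols listed in both deposited columns. They were followed in the distal small intestine (ileum) of C57BL/6 mice at 24 weeks of age, 3 of them wild type and 3 TLR4ΔIEC. In TLR4ΔIEC mice the lipopolysaccharide receptor Tlr4 is conditionally deleted in the intestinal epithelium. The labels name no promoter or Cre line for the deletion and no treatment for either group. Total RNA of frozen ileum was sequenced after removal of ribosomal RNA, and each genotype has 1 deposited column of average coverage (reads per base of a transcript) that its 3 mice share. Every value below is therefore that of a pooled column. No spread between mice can be given, no test was possible, and genotype and sequencing pool cannot be told apart.

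The proteasome is the protease that degrades most ubiquitin-tagged proteins of a cell. Its barrel, the 20S core, is built of rings of alpha subunits, which gate the entry, and rings of beta subunits, of which Psmb5, Psmb6 and Psmb7 carry the proteolytic sites. The 19S regulatory particle caps the barrel: ATPases (Psmc genes) unfold the substrate, and the Psmd genes encode ubiquitin receptors, the lid and assembly chaperones. Under interferon, Psmb8, Psmb9 and Psmb10 take the places of Psmb5, Psmb6 and Psmb7 in newly made cores, which then cut more peptides suited to MHC class I. In the gut, the complex serves both the rapid protein turnover of the renewing epithelium and antigen presentation.

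Coverage was put on 1 scale by the median ratio of the columns and expressed in units that add up to a mean total of 1000000. The wild type column held 22724 transcript entries with a coverage sum of 699800, and the TLR4ΔIEC column held 22687 entries with a sum of 698473. Log2 ratios are TLR4ΔIEC over wild type, taken after 1 unit was added to each value, and were described over the 8888 genes that averaged 5 units or more. Tlr4 had 2.90 units (wild type) and 2.24 units (TLR4ΔIEC), a weak signal over the whole transcript and all cells of the tissue, which checks the deletion only loosely. The 7 ileal epithelium markers were all present, from Slc10a2, the bile acid carrier of the ileum (92.9 and 93.6 units), to the bile acid binding protein Fabp6 (15333 and 13619 units).

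Proteasome subunit genes were, for the most part, slightly higher in the TLR4ΔIEC column. Of the 36 genes, 34 passed the level filter, each in both columns taken alone. Their median log2 ratio was 0.25, against 0.03 over all genes analysed. None of the 34 was 2-fold apart, where 4.08% of all genes were (1.29% higher and 2.79% lower in TLR4ΔIEC). At least 25% higher in TLR4ΔIEC were 12 of the 34, against 20.8% of all genes, and at least 20% lower, the same distance on the log scale, were 0 of the 34, against 21.2% of all genes. Ratios above 0 were found for 26 of the 34, against 52.7% of all genes. When the columns were instead brought to equal totals that leave out the 50 highest genes (called the trimmed total), 31 of the 34 and 62.1% of all genes lay above 0. Among the 4788 genes within the members' range of levels, the median was -0.00. At the edge of the 25% limit, Psmd5 lay just inside (log2 ratio 0.32) and Psma4 just outside (0.31). The 34 ratios ran from -0.28 for Psmb5 to 0.72 for Psma5, with a standard deviation over genes of 0.24, against 0.48 over all genes.

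**Figure D1:**
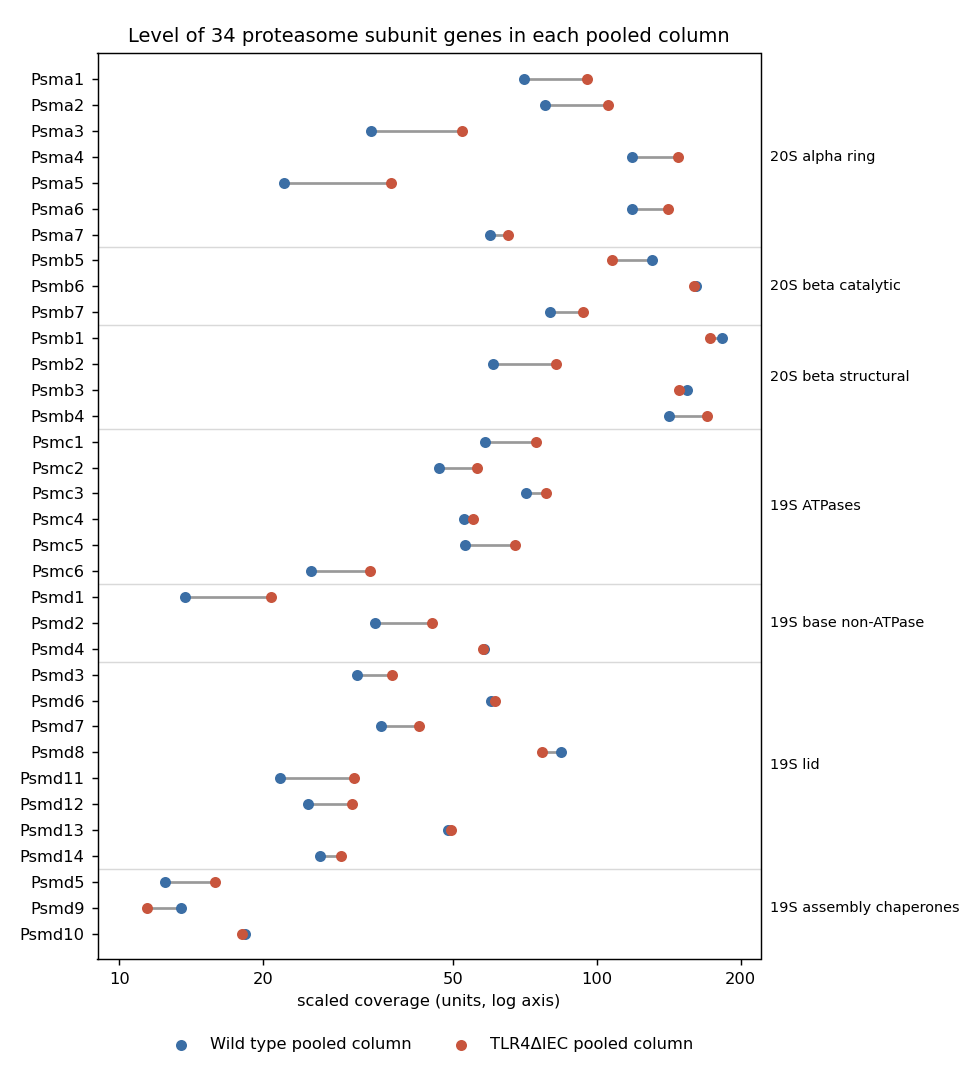
Scaled coverage in units (log axis) of the 34 subunit genes that passed the level filter, grouped by role, with 1 point for each pooled column and no error bars because each genotype has 1 value. All 7 alpha ring genes lie farther right in TLR4ΔIEC, while 8 of the 34 genes, among them Psmb5, Psmb1, Psmd8 and Psmd9, lie farther left.

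The alpha ring had the highest median of the role groups, though after correction for GC content and length it lay below the non-ATPase subunits of the 19S base (0.27 and 0.35). All 7 genes that passed the filter were higher in the TLR4ΔIEC column, 4 of them by at least 25%, and their median log2 ratio was 0.43. Psma5 had 22.1 units in wild type and 37.1 in TLR4ΔIEC, a log2 ratio of 0.72 and the highest of the 34. The gene lies at chr3:108256926-108279974 on the plus strand (GRCm38). Psma3 followed with 33.7 and 52.1 units (0.61). Psma1 (70.4 and 95.1 units) and Psma2 (77.9 and 105 units) both had a log2 ratio of 0.43. The most abundant alpha genes differed less, with Psma4 at 119 and 148 units (0.31) and Psma6 at 119 and 141 units (0.25). Psma7 had the smallest difference of the ring, with 59.7 and 65.2 units (0.12). The sum over the 7 genes was 501 units in wild type and 644 in TLR4ΔIEC, a ratio of 1.28. Levels within the ring differed by a factor of 5.37 between its highest and lowest member in wild type and 3.98 in TLR4ΔIEC. Psma3, Psma4 and Psma5 have processed pseudogenes that match their transcripts closely (100% over 665 bases for Psma3 and 98.6% over 952 bases for Psma5 at the closest), and the sources used here do not say how such reads were assigned.

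The beta genes had ratios on both sides of 0, and how many lay above it depended on the processing. The median log2 ratio over the 7 beta genes was -0.01, with 3 above 0 and 4 below. It was 0.09 with the trimmed total, and 0.17 with 5 of 7 above 0 once the trend on GC content and length was removed. Psmb5, the chymotrypsin-like site, had 131 and 108 units in the wild type and TLR4ΔIEC columns, and its log2 ratio of -0.28 was the lowest of the 34. The gene lies at chr14:54614119-54618022 on the minus strand (GRCm38). Psmb6, the caspase-like site, had nearly the same level in both columns (161 and 160 units, -0.01), and Psmb7, the trypsin-like site, had 79.9 and 93.3 units (0.22). Among the beta subunits without a proteolytic site, Psmb2 (60.6 and 82.1 units, 0.43) and Psmb4 (141 and 170 units, 0.26) were higher in TLR4ΔIEC. Psmb1 (183 and 172 units, -0.08) and Psmb3 (154 and 148 units, -0.06) were close to equal. The ratios of Psmb1, Psmb3 and Psmb6 turned above 0 with the trimmed total (0.02, 0.05 and 0.09), while that of Psmb5 was -0.17. With the GC and length trend removed, Psmb1 was at -0.19, Psmb5 at -0.06, Psmb3 at 0.08 and Psmb6 at 0.19. Psmb5 has a pseudogene copy with 98.9% identity over 796 bases.

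Because both columns give each gene's coverage per base, levels can be compared within a column, where the scaling between columns plays no part. Psmb5 coverage was 1.85 times the median of the alpha genes in wild type and 1.13 times in TLR4ΔIEC. For Psmb6 the same quotient was 2.28 in wild type and 1.68 in TLR4ΔIEC, and for Psmb7 it was 1.13 and 0.981. All 3 proteolytic subunits therefore stood lower against the alpha median, which was Psma1 in both columns, in TLR4ΔIEC, Psmb5 the most. This did not hold against each alpha gene, since the log2 ratio of Psmb7 (0.22) was above that of Psma7 (0.12). These quotients are not corrected for GC content and length. With that correction the 3 log2 ratios lay below the alpha median (0.27), but Psmb6 (0.188) lay above Psma6 (0.177) and Psma7 (0.183).

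**Figure D2:**
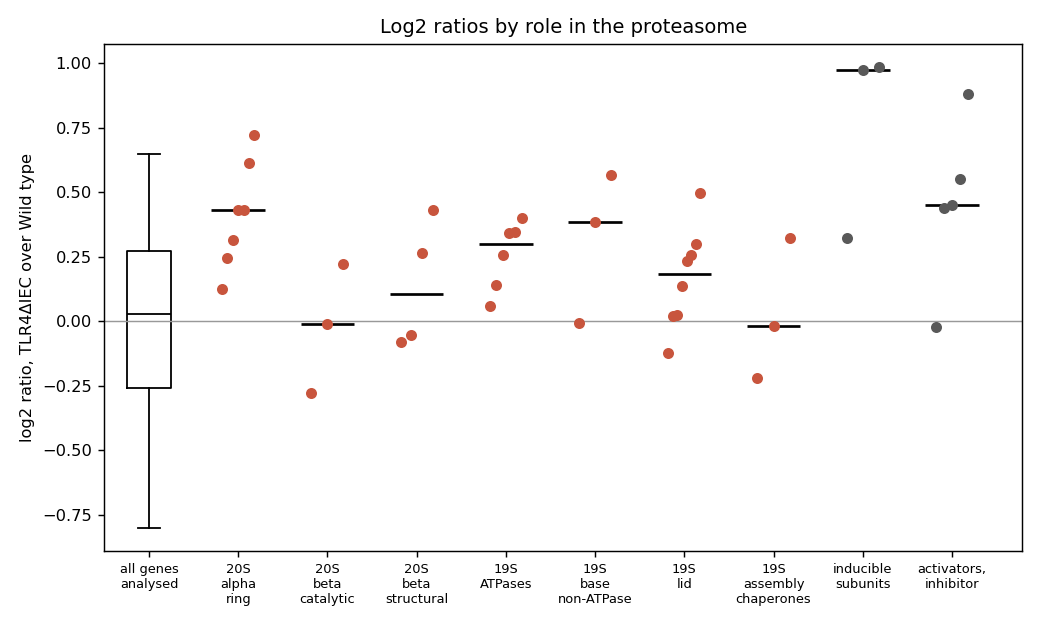
Log2 ratio of TLR4ΔIEC over wild type for each subunit gene by role (points), with the group median as a line; grey points are the inducible subunits and the proteasome activators with their inhibitor. The box for all 8888 genes spans the 25th to 75th percentile (-0.26 to 0.27) and its whiskers the 5th to 95th (-0.80 to 0.65), and the alpha ring lies above 0 throughout while the catalytic beta genes straddle it.

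Upstream sequences of the 2 highest and the 3 lowest genes by ratio, and of Psmb6 as a further proteolytic subunit with a motif near its start, are shown here because a known route to higher proteasome expression runs through the promoter: the factors Nfe2l1 and Nfe2l2 bind the antioxidant response element, whose core was searched as TGACNNNGC. Each sequence covers the 150 bases before the RefSeq transcription start (GRCm38.p6), 5′ to 3′ on the strand of the gene, with matches to TGACNNNGC and to CCAAT in capitals. Psma5 lies at chr3:108256776-108256925 (plus strand) and Psma3 at chr12:70974473-70974622 (plus strand), the highest ratios. Psmb5 lies at chr14:54617996-54618145 (minus strand), Psmd9 at chr5:123228040-123228189 (plus strand) and Psmd8 at chr7:29180674-29180823 (minus strand), the lowest. Psmb6, whose ratio was near 0, lies at chr11:70525207-70525356 (plus strand). The order by ratio used here is the one without correction for GC content and length. With that correction, Psmd3 (0.49) and Psmb2 (0.48) stood above Psma3 (0.46), and Psmb1 and Psmd9 (both -0.19) were lowest.
Psma5: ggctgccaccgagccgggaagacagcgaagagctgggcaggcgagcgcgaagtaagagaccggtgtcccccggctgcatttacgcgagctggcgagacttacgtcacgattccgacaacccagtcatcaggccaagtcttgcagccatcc
Psma3: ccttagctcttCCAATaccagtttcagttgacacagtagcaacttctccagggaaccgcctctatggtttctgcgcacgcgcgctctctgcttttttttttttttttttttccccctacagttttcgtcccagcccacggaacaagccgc
Psmb5: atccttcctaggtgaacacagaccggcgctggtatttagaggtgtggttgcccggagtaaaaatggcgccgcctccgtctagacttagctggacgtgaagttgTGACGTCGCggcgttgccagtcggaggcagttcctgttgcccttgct
Psmb6: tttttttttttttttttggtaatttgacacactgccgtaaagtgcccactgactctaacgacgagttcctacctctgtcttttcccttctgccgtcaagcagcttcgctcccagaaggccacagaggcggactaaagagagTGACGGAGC
Psmd9: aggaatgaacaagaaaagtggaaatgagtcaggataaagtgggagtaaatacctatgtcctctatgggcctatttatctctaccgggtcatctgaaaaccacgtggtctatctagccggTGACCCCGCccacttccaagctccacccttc
Psmd8: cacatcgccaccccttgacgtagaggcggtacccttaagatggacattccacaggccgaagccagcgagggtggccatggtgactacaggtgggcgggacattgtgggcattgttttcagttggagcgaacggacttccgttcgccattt

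A RefSeq promoter was matched for 29 of the 36 genes, all but Psma8, Psmb1, Psmb2, Psmb7, Psmc3, Psmd3 and Psmd7. Within the 250 bases before the start, on either strand, TGACNNNGC was present in 5 of the 29 (17.2%), against 10.1% of 27025 promoters of all genes and 12.2% of those of analysed genes. Counted from the transcription start, it began at -47 in Psmb5, -31 in Psmd9 and -9 in Psmb6, and far upstream in Psmc6 (-227) and Psmd12 (-247). The log2 ratios of these 5 genes went both ways, from -0.28 for Psmb5 and -0.22 for Psmd9 over -0.01 for Psmb6 to 0.30 for Psmd12 and 0.40 for Psmc6. Their median was -0.01, against 0.26 for the 23 analysed genes without the motif. After correction for GC content and length, both medians were 0.19. CCAAT was found in 12 of the 29 (41.4%, against 34.5% of all promoters and 36.5% of those of analysed genes), and GGGCGG, the core letters of the Sp1 site, in 17 (58.6%, against 32.9% and 60.4%). These letter matches describe the windows and say nothing of binding in these tissues.

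In the 19S particle, the ATPases that unfold substrates had the narrowest spread of ratios among the role groups (standard deviation over genes 0.13). All 6 were higher in TLR4ΔIEC, 3 of them by at least 25%, with a median log2 ratio of 0.30. Psmc6 rested on the lowest level (25.2 and 33.5 units, 0.40). Psmc1 (58.4 and 74.4 units) and Psmc5 (52.9 and 67.3 units) both had a log2 ratio of 0.34, and Psmc2 (46.7 and 56.0 units) had 0.26. Psmc3 (70.9 and 78.2 units, 0.14) and Psmc4 (52.7 and 54.9 units, 0.06) differed least. Levels of the 6 ATPases, which occur once each in the ring, spanned a factor of 2.81 in wild type and 2.33 in TLR4ΔIEC.

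Of the other subunits of the 19S base, the large scaffold proteins Psmd1 (13.7 and 20.8 units, 0.57) and Psmd2 (34.3 and 45.1 units, 0.38) were higher in TLR4ΔIEC. The ubiquitin receptor Psmd4 had 57.9 and 57.6 units (-0.01, and 0.09 with the trimmed total). The Psmd1 averages rested on unequal recovered lengths in the columns (3191 and 1628 bases, or multiples of these), so its ratio is less certain than the others. Psmd1 also shares 301 exon bases with another gene on the same strand. Psmd2 shares 97.0% identity over 2590 bases with a transcribed pseudogene.

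Lid genes were mostly a little higher, 7 of 8 above 0 (against 52.7% of all genes) with a median log2 ratio of 0.18. Where 20.8% of all genes were at least 25% higher, 1 of the 8, a smaller share, was. That gene, Psmd11, which strengthens the contact between lid and core, had 21.7 units in wild type and 31.0 in TLR4ΔIEC (0.50). Psmd12 (24.8 and 30.8 units, 0.30), Psmd7, the partner of the lid deubiquitinase (35.3 and 42.4 units, 0.26), and Psmd3 (31.5 and 37.2 units, 0.23) came next. Like Psmd11, the subunits Psmd3, Psmd6, Psmd8, Psmd12 and Psmd13 form the scaffold of the lid. Psmd14, the deubiquitinase that removes ubiquitin chains before degradation, had 26.4 and 29.1 units (0.14). Psmd6 (60.1 and 61.1 units, 0.02) and Psmd13 (48.9 and 49.5 units, 0.02) were nearly equal. Psmd8 was the lid gene with the highest level and the sole one below 0 (83.9 and 76.9 units, -0.12). With the GC and length trend removed, 6 of the 8 lid genes lay above 0, with a median of 0.13. Psmd3 was then the highest of the lid (0.49, against 0.39 for Psmd11), and Psmd6 and Psmd8 lay below 0 (-0.07 and -0.06). The 3 chaperones that help to assemble the base were weakly covered and went different ways. Psmd5 had 12.5 and 15.8 units (0.32), Psmd10 had 18.4 and 18.1 units (-0.02, and 0.08 with the trimmed total) and Psmd9 had 13.4 and 11.4 units (-0.22). With the GC and length trend removed, Psmd5 was at 0.17, Psmd10 at -0.15 and Psmd9 at -0.19. Psmd9 shares 1849 exon bases with a noncoding gene on the opposite strand, and the use of strand in the coverage is not known.

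The 2 genes below the level filter are the tissue-restricted subunits. Psma8, an alpha subunit of the testis, had a deposited coverage of 0.110 and 0.106 in the wild type and TLR4ΔIEC columns. Psmb11, the beta subunit of cortical thymic epithelium, had 0.292 and 0.114. In units both lay under 0.5 in each column, where the added unit outweighs the value, so no ratio is read for them.

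By level, the proteasome belonged to the well expressed genes of the ileum. Of the 34 subunit genes, 32 lay above the median of all analysed genes and 7 in the top 10th. The order of the members hardly differed between the columns, with a Spearman rho of 0.98 over 34 genes (0.93 over all 8888 genes). It is given as a description since genes of 1 column are not independent. The 6 highest were Psmb1, Psmb6, Psmb4, Psmb3, Psma4 and Psma6, all of the core. Core genes had a median of 99.2 units (wild type) and 106 units (TLR4ΔIEC), and 19S genes one of 34.8 and 43.7 units. The median log2 ratio was 0.25 for the 20S and 0.24 for the 19S genes, 0.37 and 0.28 with quantile normalization, and 0.25 and 0.14 without the members that have a near-identical copy. Summed over all 34, the subunit genes had 2201 units in wild type and 2468 in TLR4ΔIEC, a ratio of 1.12.

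Depth behind these values can be given in bases of reads, since coverage times the recovered length is a whole number. For the 34 genes it ran from 9653 bases in wild type and 12140 in TLR4ΔIEC for Psmd7, to 129143 and 127794 bases for Psmb1. Psma5 rested on 18367 and 32329 bases over 1217 bases of length. The length found this way can be a fraction of the annotated one, as for Psmd7 (400 against 1581 bases). It can also exceed it, as for Psma7 (1778 against 914 bases). Such totals are therefore rough, and the order of genes by them is uncertain. Without the read length they give no counting interval.

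Against their inducible counterparts, Psmb5 and Psmb6 stood lower in TLR4ΔIEC than in wild type. Psmb8 coverage was 81.2 (wild type) and 169 (TLR4ΔIEC), while Psmb5, whose place it takes, had 89.2 and 77.0. The quotient of Psmb8 over Psmb5 was 0.910 in wild type and 2.20 in TLR4ΔIEC, 2.41 times as high. Psmb9 over Psmb6 was 0.462 in wild type and 0.919 in TLR4ΔIEC, 1.99 times as high, and Psmb10 over Psmb7 was 1.95 and 2.08, 1.07 times as high, a difference that widened after correction for GC content and length (from 0.10 to 0.32 on the log2 scale). Summed over the 3 pairs, the inducible genes held 48.4% of the coverage in wild type and 61.6% in TLR4ΔIEC. These quotients are within a column and need no scaling between columns. Psmb9 shares 212 exon bases with Tap1 on the opposite strand and Psmb8 shares 498 with an antisense gene, and although the libraries keep strand, the sources used here do not say whether the coverage was taken by strand.

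**Figure D3:**
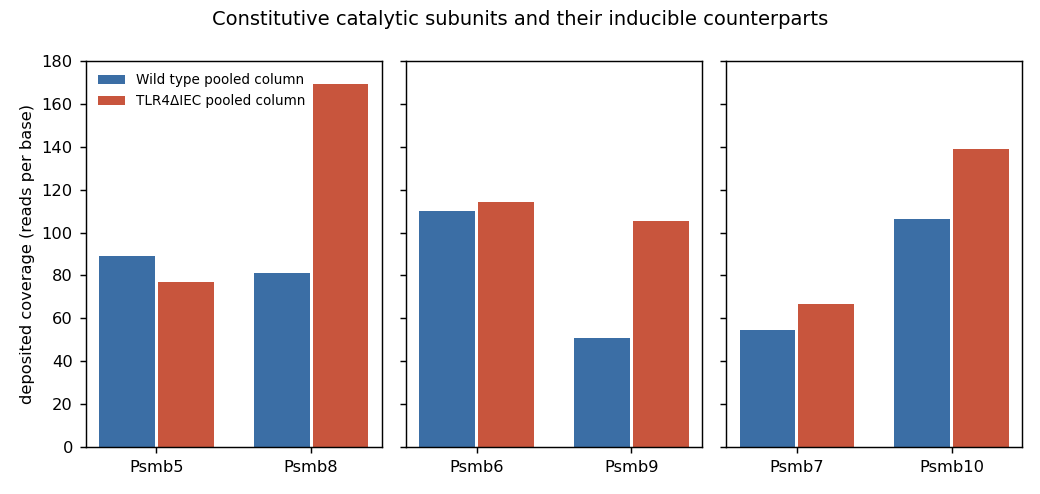
Deposited coverage (reads per base, axis from 0) of each constitutive catalytic subunit beside its inducible counterpart, with 1 bar for each pooled column and no error bars because each genotype has 1 value. Psmb8 passes Psmb5 in TLR4ΔIEC (169 against 77.0) but not in wild type (81.2 against 89.2), while Psmb10 exceeds Psmb7 in both.

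Of the 4 activators and 1 inhibitor, the activators were all at least 25% higher in TLR4ΔIEC (median log2 ratio of the 5 genes 0.45). Psme1 (178 and 329 units, 0.88) and Psme2 (126 and 185 units, 0.55), which form the interferon-inducible PA28 cap, led them, and the inhibitor Psmf1 was at 6.66 and 6.54 units. Among 5 assembly genes the ratios ran from -0.14 to 0.69, with the core maturation factor Pomp at 196 and 185 units (-0.08, and 0.02 with the trimmed total) and Psmg1 at 22.0 and 27.7 units (0.32). The remaining 19S subunits were close to equal, with Adrm1, a ubiquitin receptor, at 33.1 and 31.2 units (-0.08) and Shfm1 at 204 and 194 units (-0.07), and both lay above 0 with the trimmed total (0.02 and 0.03).

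Among regulators of subunit transcription, the 2 activating factors differed little. Nfe2l1, which raises subunit transcription when proteasome activity falls short, had 24.0 and 25.2 units (0.06), and Nfe2l2 had 46.0 and 51.8 (0.17). Vcp, the unfoldase that delivers substrates to the proteasome and is needed to release Nfe2l1 from the endoplasmic reticulum, stood higher (60.8 and 101 units, 0.73). Ngly1, which removes sugars from Nfe2l1, had 25.5 and 21.5 units (-0.24) and Bach1, a repressor at the same elements, 19.2 and 24.8 (0.35). Of the 8 genes of this list, 7 lay above 0 and 2 were at least 25% higher, against 52.7% and 20.8% of all genes. A mixed list of ubiquitin receptors, deubiquitinases, ubiquitin ligases and other proteasome partners had 9 of 10 analysed members above 0 (median 0.26). Of these, Ubqln1 alone was well covered (27.1 and 28.8 units, 0.09).

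Of the ubiquitin genes, Ubb, a stress-responsive polyubiquitin gene, was lower in the TLR4ΔIEC column, with 1999 units (wild type) and 1179 units (TLR4ΔIEC, log2 ratio -0.76). Uba1, the enzyme that activates ubiquitin, was higher there (35.8 and 51.4 units, 0.51).

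Other features of the columns moved with these ratios. GC content did so across all genes, with a Spearman rho of -0.34 between GC content and log2 ratio over 8851 genes and of -0.49 over the 34 subunit genes. The alpha genes had a median GC content of 45.0% and the catalytic beta genes 55.8%. After removal of the trend on GC content and transcript length (the correction named above), the median log2 ratio of the 34 was 0.19 with 28 above 0, that of the alpha ring 0.27, and that of the catalytic genes 0.17, so the gap between alpha and catalytic genes was smaller. Psmb5 was then at -0.06, Psmb6 at 0.19 and Psmb1, the lowest of the 34 in that setting, at -0.19. The difference between the log2 ratios of Psmb8 and Psmb5 was 1.18 in that setting and 1.26 without it, that of Psmb9 and Psmb6 was 0.90 and 0.98, and that of Psmb10 and Psmb7 was 0.32 and 0.10. Whether GC content accounts for the differences among the subunits was not tested.

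**Figure D4:**
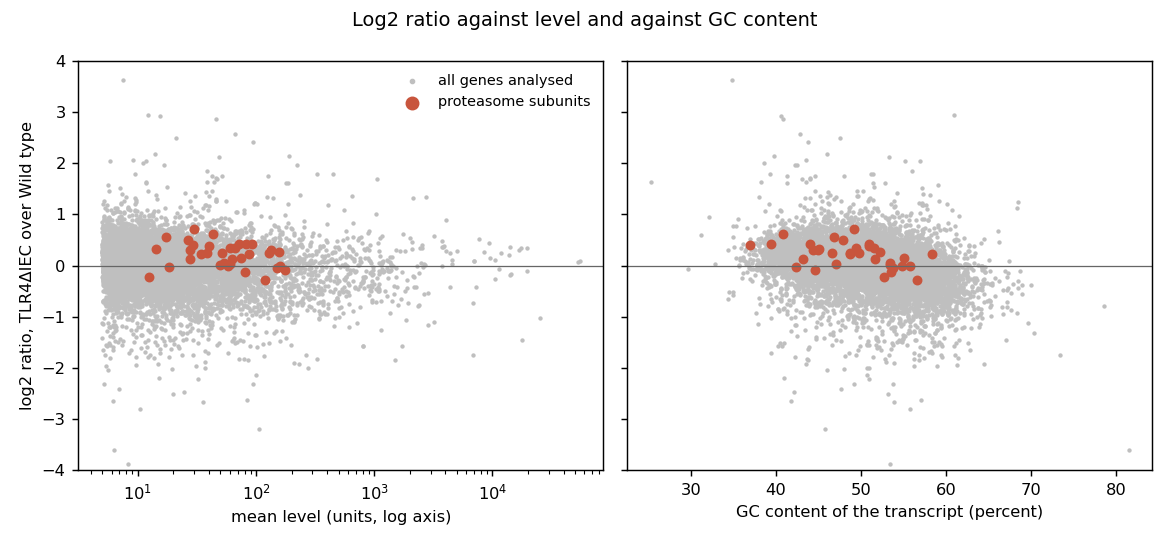
Log2 ratio of TLR4ΔIEC over wild type against mean level (left, units on a log axis) and against GC content of the transcript in percent (right), for all genes analysed (grey) and the 34 proteasome subunit genes (red). The subunit genes lie in a narrow band from -0.28 to 0.72, and their ratios are lower at higher GC content, as are those of all genes (Spearman rho -0.49 and -0.34).

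Markers of other cells also differed. In bulk tissue, more cells of a type and more RNA per cell cannot be told apart. Of the 7 ileal epithelium markers, 5 lay below 0, with a median log2 ratio of -0.17 and sums of 18806 and 16643 units. Epcam (-0.40) and Slc51a (-0.56) were at least 20% lower in TLR4ΔIEC, while Vil1 turned above 0 with the trimmed total (0.09). Of 11 cell division genes, 10 had ratios above 0, and their summed level was 242 units in wild type and 340 in TLR4ΔIEC. All 5 markers of T cells and intraepithelial lymphocytes were above 0 (sum 96.7 and 265 units), as were 4 of 5 macrophage markers (895 and 1668 units) and 3 of 4 plasma cell markers (367 and 946 units). Single genes carried much of these sums: the ratio of the T cell sums was 2.74 with Gzma and 1.76 without it, that of the plasma cell sums 2.58 with Igj and 1.48 without it, and that of the macrophage sums 1.86 with Lyz2 and 1.36 without it. Goblet cell markers were below 0 in 4 of 4 (12763 and 7995 units; Muc2 turned to 0.07 with the trimmed total), adipocyte markers in 4 of 4 (63.3 and 19.7 units), and stress and handling genes in 5 of 5 analysed (235 and 92.5 units). Paneth cell markers (63389 and 67497 units), smooth muscle markers (698 and 811 units) and both globin genes (103 and 232 units) were above 0. None of these markers was at 0 in either column, and their part in the proteasome values was not tested.

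**Figure D5:**
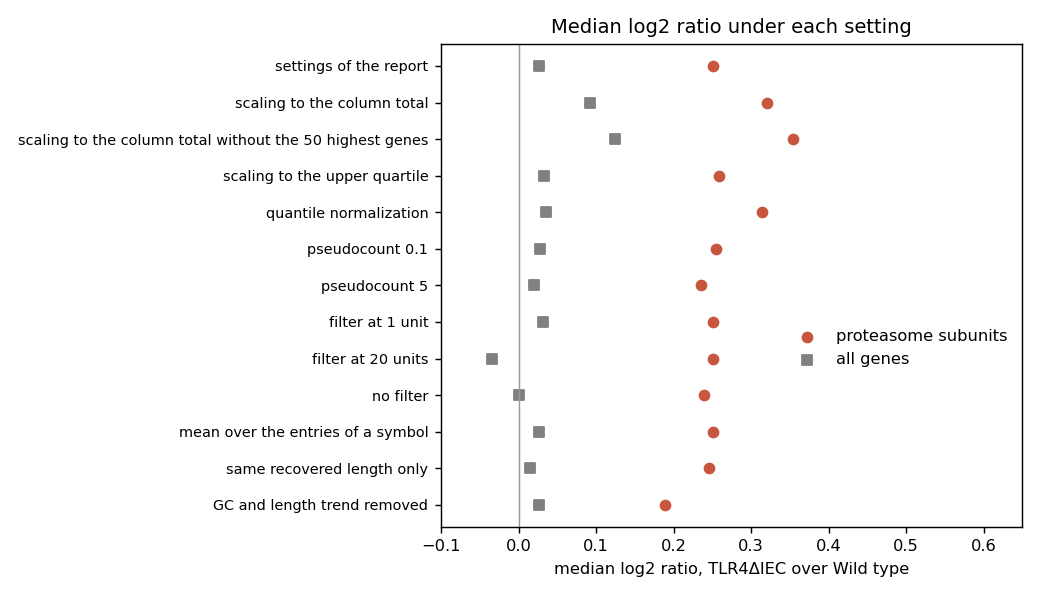
Median log2 ratio of TLR4ΔIEC over wild type under each scaling, pseudocount, filter and correction, for the proteasome subunit genes (red circles) and for all genes kept in that setting (grey squares). The subunit median lies between 0.19 and 0.35 and above that of all genes in each setting drawn.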

How the data were processed

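Per the file headers, the deposited unit is average coverage (a signal in reads per base) of a RefSeq transcript entry, and per the labels 1 column belongs to all 3 mice of a genotype. The submitters' processing notes name TopHat2 2.0.10, Bowtie2 2.1.0 and mm10. The sources used here name neither the coverage program nor the read length. The libraries keep strand, but whether the coverage was taken by strand is not said. The 22001 entries listed in both columns gave 21950 symbols, each represented by its highest entry. Columns were scaled by the median of ratios (1.05). The planned description without a test was followed, since there are no replicates. The members, the gene lists, the 25% limit and the motifs were chosen with earlier results of these data known. All members are named, and genes of other lists from a mean of 20 units, up to 4 each by ratio. Psmf1, Nfe2l1 and single marker genes were added after their values were seen. Some genes of the ubiquitin list are not reported here. GC content, length, overlaps and coordinates come from GENCODE vM21 (GRCm38), and promoters from RefSeq (GRCm38.p6). Near-identical copies were pseudogene transcripts with at least 95% identity over at least 500 bases (blastn 2.17.0). The scaling by the median ratio and the log2 ratios, but not the other steps, were tested on simulated data. Python 3.11.15, numpy 2.4.6, pandas 2.3.3 and statsmodels 0.14.6 were used.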

Additional observations from a re-analysis of the deposited data

How the results depend on the processing

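The median log2 ratio of the subunit genes was above 0 under each of 12 planned settings, without the member farthest from the median (Psmb5), and in 2 settings chosen after seeing the data. With column totals that leave out the 50 highest genes it was 0.35, and the median of all genes kept was 0.12. The distance between them was 0.23, as with the scaling used above. Over the planned settings where it was calculated, this distance was smallest with the GC and length trend removed (0.16). It was largest with the filter at 20 units (0.29). The totals without the 50 highest genes put the 20S median at 0.36 and the 19S median at 0.35. Quantile normalization put the 20S median at 0.37, for which the cause was not tested. Without the members that have a near-identical copy (chosen after seeing the data), the 19S median was 0.14, since Psmc1, Psmd2 and Psmd11, all above that median, were then left out. Without the 9 members whose exons overlap another gene (also chosen after seeing the data), the median of the remaining 25 was 0.26. In none of these settings was a member 2-fold apart. Over the scalings tried, the directions of Psmb1, Psmb3, Psmb6, Psmd4 and Psmd10 were not the same, and Psmd6 was at -0.07 with the GC and length trend removed. No paired analysis was possible because the groups share no replicate numbers and each has 1 pooled column, and single mice could not be left out for the same reason. Depth cannot be turned into a counting interval, since the read length is not known.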
